A study of Mus musculus with 12 samples.

Results

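Fcgbp, Sftpd, Pigr, Ltf, Lcn2 and Slpi encode proteins that epithelia release onto mucosal surfaces, and their RNA was followed in clones of mouse oviduct cells. These 6 genes were found by symbol among 35509 genes of the count table, and each symbol had 1 row. Fcgbp and Sftpd were chosen by their lower counts in large clones in these same libraries, so their levels are described here without a test. The other 4 were taken for comparison as secretions of the same kind.

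The material came from the distal Fallopian tube (oviduct) of mice 4 weeks old that were wild-type apart from MADM RG;GR alleles, on a mixed background, with no treatment. MADM (mosaic analysis with double markers) marks a dividing cell and its descendants by fluorescent colour after recombination between chromosomes, so that a clone can be seen and its size judged. From each of 6 mice, 200 cells of large clones and 200 cells of small clones were pooled separately, which gave 6 libraries of each clone size. The 2 sizes share the genotype and the mice. The driver of the recombinase and the sizes that define large and small are not given in the sources used here. In a pool of cells, fewer cells of a type and less RNA per cell cannot be told apart.

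Mucosal surfaces are protected by a layer of mucus into which epithelial cells secrete proteins that trap, bind or starve microbes. Fcgbp (Fc gamma binding protein) is a large mucus component that associates with mucins. Sftpd, surfactant protein D, is a collectin that binds sugars on microbial surfaces. Pigr, the polymeric immunoglobulin receptor, carries IgA across the epithelium. Ltf (lactotransferrin) binds iron, Lcn2 (lipocalin 2) binds the siderophores with which bacteria take up iron, and Slpi inhibits neutrophil proteases. Ltf is a well known oestrogen-responsive secretion of the mouse reproductive tract, and Ltf and Lcn2 are also stored in neutrophil granules.

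Sequence is shown for 2 purposes. The first is to show what stands before the start of Fcgbp and before the starts of the iron-related genes Ltf and Lcn2. Each line gives the 250 bases before the RefSeq start, 5′ to 3′ on the gene's strand, from RefSeq on GRCm38.p6. These are chr7:28070986-28071235 on the plus strand for Fcgbp, chr9:111019042-111019291 on the plus strand for Ltf and chr2:32387740-32387989 on the minus strand for Lcn2. Of the 6 members, 5 had an entry, all but Sftpd. Capitals mark the letters of 4 motifs that were searched on both strands. The TATA box was searched as TATAA. The box bound by nuclear factor Y was searched as CCAAT. The binding sequence of the C/EBP family was searched as TTGCNNAA. A single arm of the oestrogen response element was searched as AGGTCA.
Fcgbp: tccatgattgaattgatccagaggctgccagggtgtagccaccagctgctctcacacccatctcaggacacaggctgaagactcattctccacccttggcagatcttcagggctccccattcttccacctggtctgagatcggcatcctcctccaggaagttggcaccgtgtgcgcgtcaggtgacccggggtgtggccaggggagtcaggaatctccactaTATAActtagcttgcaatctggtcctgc
Ltf: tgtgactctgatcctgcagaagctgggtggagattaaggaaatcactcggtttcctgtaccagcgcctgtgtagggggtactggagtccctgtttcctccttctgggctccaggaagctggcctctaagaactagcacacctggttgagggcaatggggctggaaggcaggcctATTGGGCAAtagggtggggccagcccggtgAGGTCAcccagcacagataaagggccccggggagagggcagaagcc
Lcn2: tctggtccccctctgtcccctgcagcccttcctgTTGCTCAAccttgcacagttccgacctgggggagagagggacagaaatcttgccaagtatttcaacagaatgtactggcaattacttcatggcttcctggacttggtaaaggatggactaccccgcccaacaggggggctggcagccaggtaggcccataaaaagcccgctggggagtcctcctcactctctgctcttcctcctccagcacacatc
The Fcgbp window held TATAA, beginning 28 bases before the start, and none of the other 3 motifs. In the Ltf window AGGTCA began 46 bases before the start, and the C/EBP and nuclear factor Y motifs, both on the opposite strand and overlapping each other, lay at 75 and 76 bases. Lcn2 had the C/EBP motif alone, at 216 bases. Among 32851 promoter windows of this length, 22.8% held the TATA box, 33.8% the nuclear factor Y motif, 9.56% the C/EBP motif and 14.0% the oestrogen response arm. Presence of any of these motifs somewhere in a window is therefore not rare. The share of windows with a match at the same position, or with the same overlap, was not computed.

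The second purpose is to show where reads of Fcgbp cannot be assigned. Its neighbour on chromosome 7, 9530053A07Rik, is a related gene. Of 7879 stretches of 50 bases in the longest coding transcript of Fcgbp (7928 bases, GENCODE M21), 674 (8.55%) also occur in transcripts of that neighbour and in those of no other gene. The longest run shared by both, within both coding sequences and from base 5733 to 5938 of the Fcgbp transcript, is the following stretch of 206 bases, with no part in capitals.
Shared run: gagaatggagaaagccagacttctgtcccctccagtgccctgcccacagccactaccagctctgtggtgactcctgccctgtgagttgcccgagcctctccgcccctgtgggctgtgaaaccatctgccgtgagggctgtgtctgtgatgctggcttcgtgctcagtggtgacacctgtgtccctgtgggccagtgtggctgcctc
The estimated counts of Fcgbp are not whole in any of the 12 libraries, as happens when shared reads are divided. The same search found 0 shared stretches for Sftpd, Ltf, Lcn2 and Slpi, and 1.74% for Pigr.

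Total expected counts lay between 3057979 and 4227129 per library, and a count of 0 allows up to 3 counts, or 0.585 to 1.33 CPM, the count relative to the TMM-adjusted size of the library. Such limits cover counting error only, since the protocol names no molecular identifiers and copies made by amplification are counted as well. Of 8 secretory marker genes of the oviduct, Ovgp1, Krt7, Krt8, Wt1, Msln and Epcam were counted in 12 of 12 libraries. Pax8 was counted in 10, and Sox17 in 8 with 54 counts together. Some markers of other cell types were also counted in 12 of 12, among them Pecam1, Vwf and Csf3r. The libraries fell into 2 sets by the share of counts on chemoreceptor genes, a family of sensory receptors that includes the olfactory receptors. It was 7.86% to 11.0% in 5 libraries and 0.841% to 4.17% in the other 7. The 5 were those of mouse 6 in both sizes, of mice 1 and 2 in large clones and of mouse 3 in small clones. Ribosomal protein genes held 1.71% to 8.55% of counts in the 5 and 14.2% to 19.2% in the 7. Across 10848 genes tested with edgeR's quasi-likelihood test, 0% (0 genes) had an adjusted p under 0.05 between clone sizes and 275 (2.54%) had an unadjusted p under 0.05. DESeq2 called 5 genes (0.0474%), and 43 (0.404%) with mouse as a block, with Pigr, Ltf and Lcn2 in neither set.

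Fcgbp was lower in large clones in every mouse, which is the reason it was chosen. Its level in large clones was 20.2, 4.47, 14.0, 6.22, 30.3 and 10.1 CPM in mice 1 to 6, and in small clones it was 33.2, 39.9, 408, 29.6, 51.5 and 95.8 CPM. The groups touch at a single point, where the highest large-clone library (mouse 5) lies just above the lowest small-clone library (mouse 4). Small clones of mouse 3 stand far above all others with 1647 counts, against 34 in the large clones of that mouse. The level in small clones was 1.65-fold (mouse 1) to 29.1-fold (mouse 3) that in large clones. The fitted log2 fold change of Fcgbp, large over small, was -2.94 (SE 0.83, n = 6 each), and -1.81 without mouse 3. A direction of this kind, lower in all 6 mice, was shared by 1.05% of genes tested. For a gene chosen by its direction, that share is a description and no support. Fcgbp (ENSMUSG00000047730) is listed on chromosome 7 at 27770661 to 27820287 in the deposited table, whose build is not named.

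**Figure D1:**
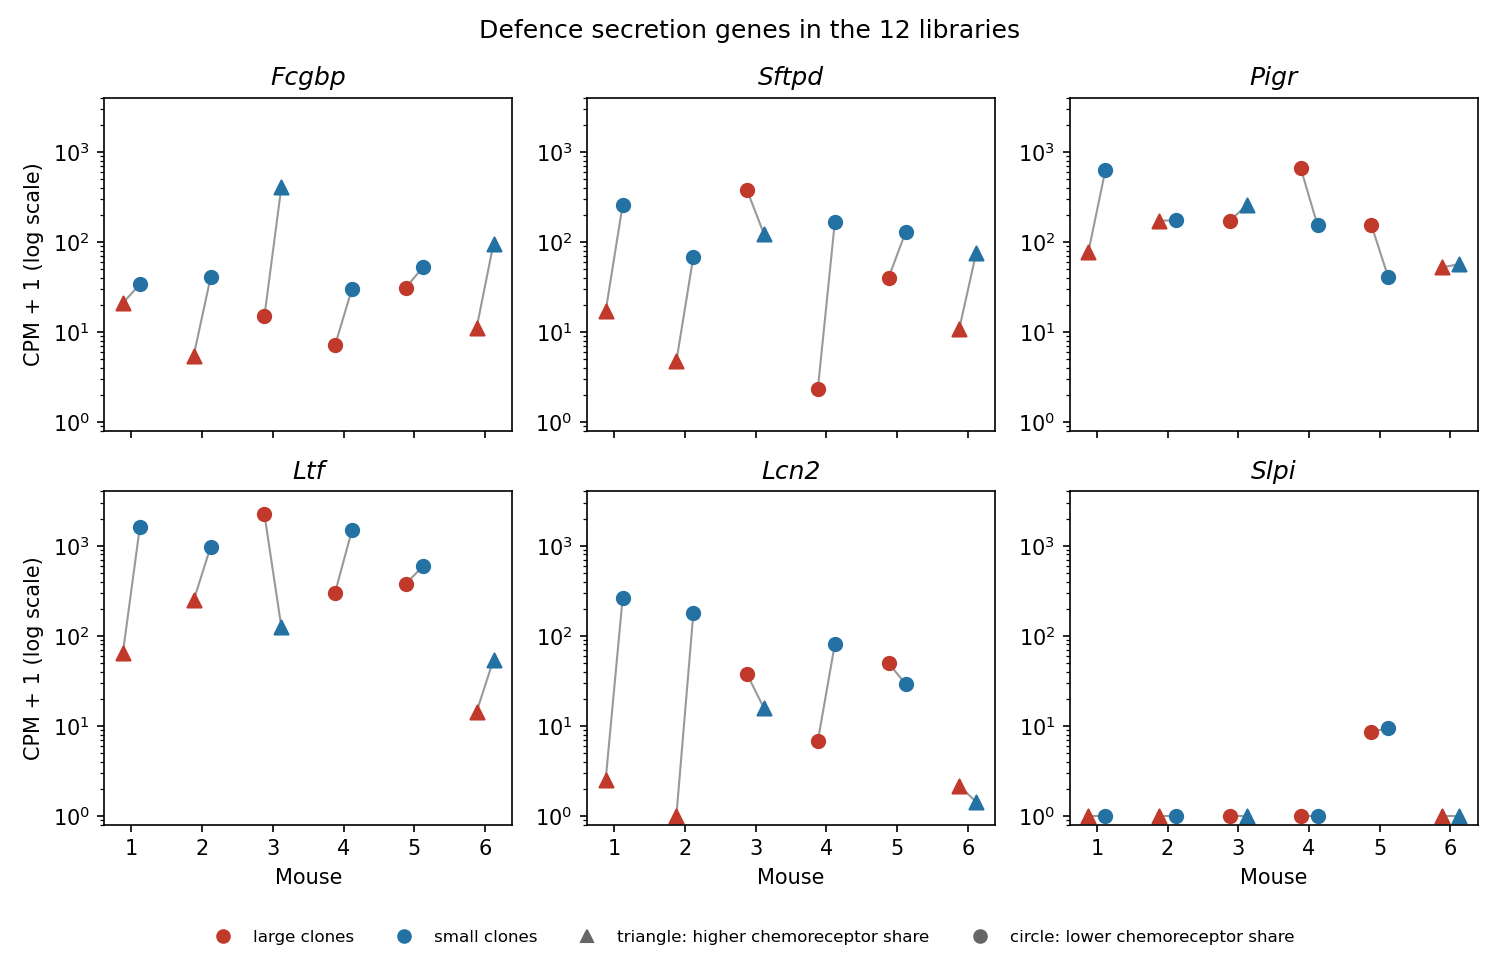
Level of each of the 6 genes as CPM + 1 on a log scale (y axis) in the large-clone (red) and small-clone (blue) library of each mouse (x axis), joined by a line; triangles are the 5 libraries with the higher chemoreceptor share and circles the other 7. Fcgbp is lower in large clones in 6 of 6 mice, Sftpd and Ltf in 5 of 6 with mouse 3 the other way, and Slpi leaves 0 in mouse 5 only.

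The neighbour 9530053A07Rik, which shares the run printed above, did not follow Fcgbp. In large clones it had 7.001, 0.471, 0.825, 0, 52.8 and 12.1 CPM, and in small clones 9.49, 0.350, 9.67, 58.9, 8.39 and 1.68 CPM. It was lower in large clones in 3 of 6 mice and higher in the other 3. In the small clones of mouse 3, where Fcgbp had 1647 counts, the neighbour had 39.

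Sftpd was lower in large clones in 5 of 6 mice, and its values were the reason it was chosen. In large clones of mice 1 to 6 it had 16.1, 3.77, 376, 1.33, 39.3 and 9.94 CPM, and in small clones 257, 68.2, 122, 165, 128 and 75.7 CPM. Large clones of mouse 3 hold the highest of the 12 values, whereas the other 5 large-clone libraries all lie below the lowest small-clone library. Of genes tested, 8.07% were lower in large clones in 5 mice and higher in mouse 3. The share with such a gap outside mouse 3 was not computed. The large clones of mouse 4 held 3 counts. The mean was 136 ± 69.2 CPM for small clones, against 74.3 ± 148 CPM for large ones (SD over 6 libraries). The fitted log2 fold change of Sftpd was -0.87 (SE 1.06) over all libraries. Omitting mouse 3 made it -3.30, and the block by mouse made it -3.12. Sftpd (ENSMUSG00000021795) is listed on chromosome 14 at 40894171 to 40907106.

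Pigr, the IgA carrier, had nearly equal means, 217 ± 229.7 CPM for large clones and 218 ± 216 CPM for small ones (SD over 6 libraries). Its level in large clones was 77.0, 172, 172, 674, 156 and 51.5 CPM in mice 1 to 6. In small clones it was 627, 175, 258, 154, 39.9 and 56.1 CPM. The groups overlap over almost their whole range, and mice went both ways. Small clones of mouse 1 had 8.14-fold the level of its large clones, and large clones of mice 4 and 5 had 4.39-fold and 3.90-fold that of their small clones. The log2 fold change of Pigr was -0.01 (SE 0.75, adjusted p of 0.99977 in edgeR), with a 95% interval from -1.60 to 1.59. Changes within those bounds are not excluded, and the bounds are not a limit of detection. Its sign turned with the scaling (0.083 with RLE) and with the block (0.12). Pigr (ENSMUSG00000026417) is listed on chromosome 1 at 130754421 to 130779986. Transcripts for the ligand side were few, with 2 counts of Igha, 2 of Igkc, 0 of Ighm and 69 of the joining chain gene Jchain over all 12 libraries together. The IgA protein itself is not measured by these counts.

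Ltf had the highest mean CPM of the 6 genes over all libraries and differed widely between them. It was the highest of the 6 in 7 of 12 libraries, whereas Pigr was highest in the large clones of mice 1, 4 and 6 and Fcgbp in the small clones of mice 3 and 6. In large clones of mice 1 to 6 it had 63.9, 245, 2245, 301, 376 and 13.3 CPM, and in small clones 1625, 969, 125, 1503, 589 and 53.4 CPM. As with Sftpd, 5 of 6 mice had less in large clones and mouse 3 went the other way, here 18.0-fold. The log2 fold change of Ltf was -0.58 (SE 1.02, adjusted p of 0.99977 in edgeR) with a 95% interval from -2.76 to 1.59, and it did not pass. Omitting mouse 3 gave -2.25 (adjusted p of 0.848 in edgeR), omitting mouse 1 gave -0.083 and omitting mouse 4 gave -0.25. A block by mouse gave -1.61 (adjusted p of 1 in edgeR). Over its alternatives the adjusted p ran from 0.489 (DESeq2 with the block) to 1. The pattern of 5 mice lower in large clones with mouse 3 higher was common, held by 8.07% of genes tested. Ltf (ENSMUSG00000032496) is listed on chromosome 9 at 110848339 to 110871835.

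Lcn2 ranged from 0 to 259 CPM and did not pass either. Its level in large clones was 1.49, 0, 36.3, 5.77, 48.9 and 1.17 CPM in mice 1 to 6, and in small clones 259, 177, 14.6, 79.3, 28.1 and 0.420 CPM. The difference was wide in mice 1, 2 and 4, where small clones were higher, and narrow in mice 3, 5 and 6, where large clones were higher. In mouse 2 the large clones had 0 counts, so small clones were at least 249.9-fold higher, taking the floor of 3 counts for that library. In mouse 1 the difference was 174-fold, from 7 counts in the large clones, and in mouse 4 it was 13.7-fold, from 13 counts. Both libraries of mouse 6 were near the floor, with 6 and 2 counts. The log2 fold change of Lcn2 was -2.58 (SE 1.39, adjusted p of 0.99977 in edgeR), with a 95% interval from -5.54 to 0.39. It was -1.72 without mouse 1 and -3.57 without mouse 5. Lcn2 (ENSMUSG00000026822) is listed on chromosome 2 at 32274645 to 32278264.

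Slpi was counted in mouse 5 only. Its large clones had 27 counts (7.58 CPM) and its small clones 29 counts (8.39 CPM), and the other 10 libraries had 0. The filter on low counts left Slpi out, so it has no test between clone sizes, and within mouse 5 the 2 clone sizes had nearly the same level. Slpi (ENSMUSG00000017002) is listed on chromosome 2 at 164195990 to 164231015.

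**Figure D2:**
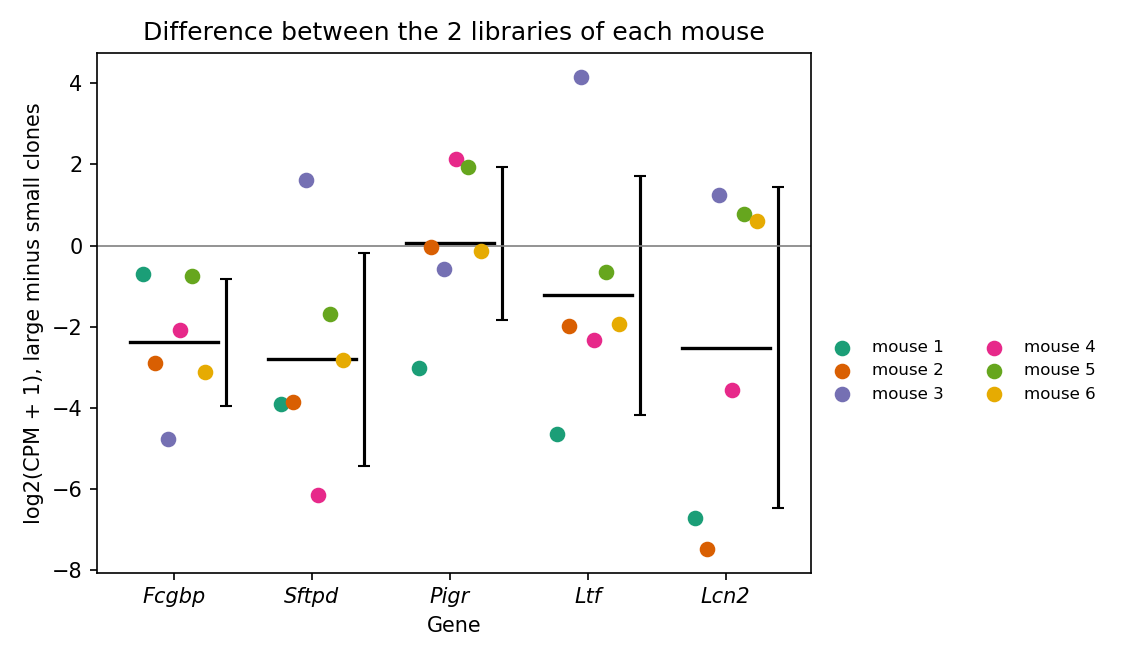
Difference in log2(CPM + 1) between the large-clone and the small-clone library of each mouse (y axis, 1 point per mouse) for 5 genes (x axis), with the mean as a bar and its SD beside it; values below 0 are lower in large clones. Points of Fcgbp all lie below 0, Sftpd and Ltf have only mouse 3 above 0, and Lcn2 and Pigr lie on both sides.

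Between the 2 libraries of a mouse, on log2(CPM + 1), the mean difference of Fcgbp was -2.39 ± 1.56 (SD, n = 6 mice) and that of Sftpd was -2.80 ± 2.62. For Ltf it was -1.23 ± 2.94, for Lcn2 -2.52 ± 3.95 and for Pigr 0.05 ± 1.88. The SD exceeded the mean for Pigr, Ltf and Lcn2, the 3 tested genes that were not picked for a difference.

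In mouse 3 Fcgbp went the opposite way from Ltf, Sftpd and Lcn2. In its small clones Fcgbp was at its highest, 408 CPM against 14.0 in large clones, while Ltf (125 against 2245 CPM), Sftpd (122 against 376) and Lcn2 (14.6 against 36.3) were all lower there. Other measures also differ between these 2 libraries. The small clones of mouse 3 had a chemoreceptor share of 7.86% against 1.76% in the large clones. Secretory marker genes (8 of 8 with counts) summed to 625 CPM in the small clones and 5409 in the large clones of this mouse, and ciliated markers (10 of 10 with counts) to 293 and 3121. Over the 12 libraries together, most secretory marker counts were of Ovgp1 (84206) and most ciliated marker counts of Tubb4b (43243). Over all libraries the secretory sum ran from 533 to 5409 CPM in large and from 618 to 9044 in small clones. The ciliated sum ran from 79.7 to 3567 and from 168 to 6161. Their part in the differences between clone sizes was not tested.

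Ltf differed between the 2 sets of libraries without overlap. Where the chemoreceptor share was low (7 libraries) it lay between 301 and 2245 CPM, and where it was high (5 libraries) between 13.3 and 245 CPM. Of genes tested, 9.98% were likewise lower in all 5 than in any of the 7. Lcn2 had 5.77 to 259 CPM in the 7 and 0 to 14.6 in the 5, with some overlap. Fcgbp did not divide in this way, with 6.22 to 51.5 CPM in the 7 and 4.47 to 408 in the 5. Sftpd and Pigr also overlapped, at 1.33 to 376 and 39.9 to 674 CPM in the 7, against 3.77 to 122 and 51.5 to 258 in the 5.

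Within each set the clone sizes were compared again. For Fcgbp, the 3 large-clone libraries of the 7 had 6.22 to 30.3 CPM and the 4 small-clone libraries 29.6 to 51.5, and in the 5 the ranges were 4.47 to 20.2 (3 large) and 95.8 to 408 (2 small). The log2 fold change of Fcgbp was -1.22 in the 7 and -4.57 in the 5. For Sftpd it was -0.31 and -3.41, for Ltf -0.39 and 0.17, and for Pigr 0.27 and -0.77. For Lcn2 it was -2.26 in the 7, and in the 5 the filter left it out. The adjusted p of Pigr, Ltf and Lcn2 in these fits lay between 0.978 and 0.9995 in edgeR. Within a set the large and small clones come from partly different mice, and these fits carry no block. Clone size and mouse therefore cannot be told apart in them. Whether the effects differ between the sets was not tested.

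**Figure D3:**
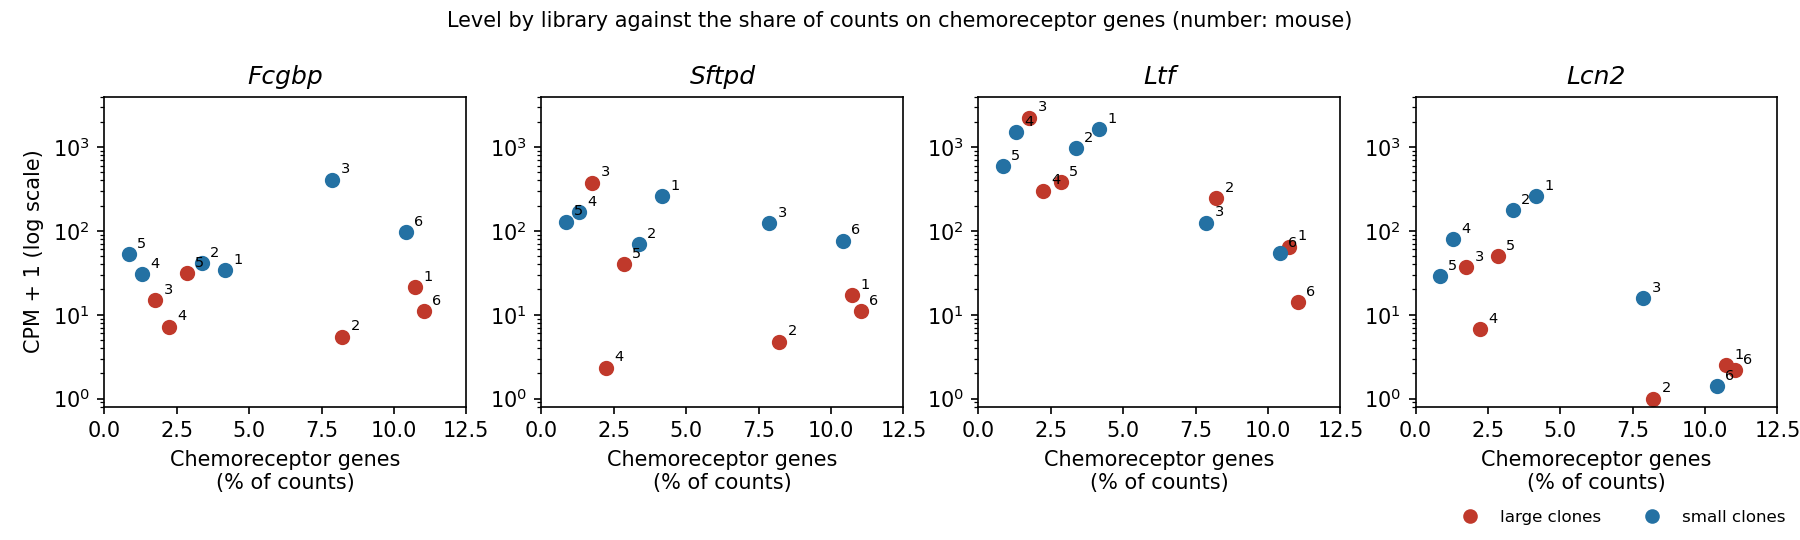
Level as CPM + 1 on a log scale (y axis) against the share of counts on chemoreceptor genes in percent (x axis) for 4 genes in the 12 libraries; red is large clones, blue is small clones, and the number is the mouse. Ltf separates the 5 libraries at 7.86% or more from the other 7, and Fcgbp does not.

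Per kilobase of the longest coding transcript (GENCODE M21, matched by gene identifier), the levels were ordered between genes. This division takes coverage as even along the transcript, which was not checked in these libraries amplified from poly(A). The median over 12 libraries was 124 CPM per kilobase for Ltf, 56.4 for Sftpd, 42.6 for Pigr, 23.3 for Lcn2, 3.78 for Fcgbp and 0 for Slpi. Ltf was above Sftpd in 9 of 12 libraries. Sftpd was above Pigr, Pigr above Lcn2 and Lcn2 above Fcgbp in 7 of 12 each, so the order of these neighbours varied between libraries. Whether their levels differ was not tested. Fcgbp was above Slpi in 10 of 12. The 6 genes together held 0.0104% (large clones of mouse 6) to 0.290% (small clones of mouse 1) of all counts.

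For each gene tested, the 3 genes with the most similar log2(CPM + 1) over the 12 libraries were listed, as a description across libraries that also share mice, depth and the chemoreceptor split. Fcgbp was most like Rcor1, Foxj2 and Icosl (Pearson r of 0.86, 0.86 and 0.84), and after each clone size mean was subtracted these were 0.81, 0.78 and 0.63. Sftpd was most like Ly6e, Irgq and Bmpr1b (0.91, 0.91 and 0.90), Pigr like Cnga1, Dkk2 and Utp11 (0.87, 0.86 and 0.84), and Lcn2 like Rbm19, Grcc10 and Cc2d2a (0.92 each). Ltf was most like Apbb1, Krt18 and Napa (0.97, 0.95 and 0.95). Krt18 encodes a simple epithelial keratin. Among the 7 libraries of low share, the values for Ltf with these 3 genes were 0.88, 0.67 and 0.68. In the same order as above, they were 0.66, 0.85 and 0.86 for Fcgbp and 0.98, 0.92 and 0.92 for Sftpd. For Pigr they were 0.83, 0.85 and 0.81, and for Lcn2 0.81, 0.62 and 0.65. All were picked as the highest among 10848 genes over 12 libraries, and no baseline for such a search was computed.

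Other genes of mucosal defence came from a list of 82, of which 81 were in the table and 27 could be tested. Of the 27, 0 rose and 0 fell at an adjusted p under 0.05 in edgeR, against 0% of all genes tested. Trf and Cfd had an unadjusted p under 0.05 (2 of 27 genes, beside 2.54% of all genes tested), and both rest on mouse 4. The log2 fold change of Trf was 2.87 over all libraries, 0.23 without mouse 4 and 0.78 with the block by mouse. For Cfd these were 5.18, 0.79 and 0.41. The fitted change was below 0 for 19 genes and above 0 for 8. The median log2 fold change was -0.30, beside 0.06 over all genes tested, of which 46.8% were below 0. With the chemoreceptor share as a covariate the median of the list was 0.12, so its sign depends on that term.

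By role, the 4 tested antiproteases were all below 0, with a median log2 fold change of -0.42. Wfdc2, a whey acidic protein of the same family as Slpi, had a median of 321 CPM in large clones and 576 CPM in small ones. Cst3, an inhibitor of cysteine proteases, had 214 and 383 CPM. The log2 fold change was -0.52 (SE 0.66) for Wfdc2 and -0.32 (SE 0.93) for Cst3. Of the complement genes, 6 of 10 were tested, 4 above and 2 below 0. C3, the central complement component, had medians of 647 and 969 CPM. Its means were 1019 ± 1115 and 1143 ± 849 CPM (SD over 6 libraries), with a log2 fold change of -0.17 (SE 0.80). Cfd (complement factor D) had means of 4078 ± 9433 CPM for large clones and 112 ± 237 CPM for small ones (SD over 6 libraries), with 23318 CPM in the large clones of mouse 4 and at most 966 in any other large-clone library. The same library, which was also the highest in Trf and Pigr, had a fibroblast marker sum (6 of 6 genes with counts) of 521 CPM. That sum ran from 15.8 to 521 CPM in large clones (median 67.6) and from 37.1 to 168 CPM in small ones. Its endothelial marker sum (5 of 5 with counts) was 429.5 CPM, in a range from 137 to 466 CPM for large clones and from 80.3 to 273 CPM for small ones. Their part in the levels of Cfd, Trf and Pigr was not tested.

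The 3 tested genes of the antibacterial and iron-binding class went both ways. Their log2 fold changes ran from -1.94 (Slc22a17) to 2.87 (Trf), with a median of -0.80. Trf, transferrin, had 1345 CPM in the large clones of mouse 4 and at most 113 in the other large clones. Slc22a17, described as a cell surface receptor for Lcn2, had medians of 3.98 CPM in large and 18.4 in small clones (log2 fold change -1.94, SE 1.15). It was lower in large clones in 5 of 6 mice, where 13.5% of genes tested were lower in 5 or 6. Among collectins and surfactant genes, Colec12, a scavenger receptor with a collectin domain, had 722 ± 333 and 597 ± 396 CPM, and Sftpc had 44.3 ± 62.9 and 50.5 ± 72.9 CPM (SD, n = 6 each). The lung collectin Sftpa1 had 0 CPM throughout. Fcgrt, the neonatal Fc receptor, was the only tested immunoglobulin transport gene, at 39.8 ± 34.5 and 55.0 ± 56.2 CPM. Muc1, a membrane mucin, had medians of 74.8 and 196 CPM. Its means were 120 ± 145 and 158 ± 125 CPM (SD, n = 6 each), with a log2 fold change of -0.40 (SE 1.14). The regulators Rela, a subunit of NF-kB, and Esr1, the oestrogen receptor, had medians of 54.9 and 89.8 CPM and of 61.9 and 78.5 CPM. The log2 fold change was -0.32 (SE 1.16) for Rela and -0.40 (SE 0.71) for Esr1, and 6 of 7 tested regulators were below 0. None of these genes passed (adjusted p of 0.99977 in edgeR for each).

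**Figure D4:**
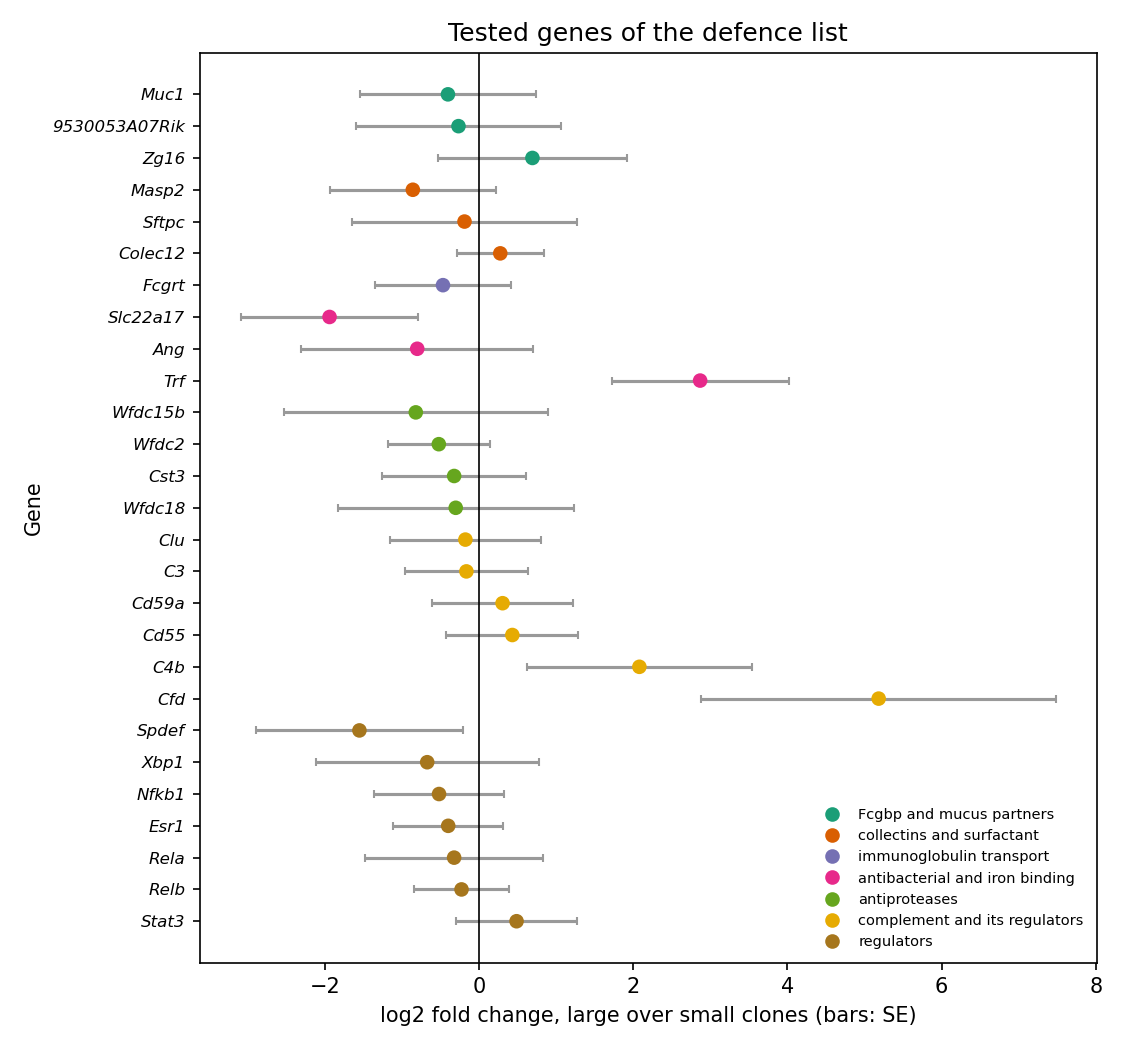
Log2 fold change of large over small clones (x axis, bars are SE) for the 27 tested genes of the defence list (y axis), coloured by role. 19 lie below 0 and 8 above, and the widest error belongs to Cfd.

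Immune cells also make some of these transcripts, so their markers were read in the same libraries. Of 10 neutrophil genes 9 had counts, and the list summed to 129 to 337 CPM for large clones and 56.2 to 351 CPM for small ones. Most of that sum came from Csf3r and Cxcr2. Over all 12 libraries together S100a8 had 0 counts, S100a9 2, Retnlg 5, Mpo 18, Camp 33, Ngp 45 and Ly6g 51. Of these, 30 counts of Camp (9.49 CPM) and 15 of Ly6g (4.74 CPM) were in the small clones of mouse 1, the library with the highest Lcn2 (259 CPM) and the second highest Ltf (1625 CPM). Ngp (18 counts, 3.51 CPM) and Mpo (12 counts, 2.34 CPM) peaked instead in the large clones of mouse 6. That library had the lowest Ltf (13.3 CPM) and 1.17 CPM of Lcn2. The 2 counts of S100a9 were in the small clones of mouse 6. The neutrophil sum was 185 CPM in the small clones of mouse 1 and 129 CPM in the large clones of mouse 3, which were highest in Ltf. The part of neutrophils in the levels of Ltf and Lcn2 was not tested. Macrophage genes (10 of 10 with counts) summed to 0 to 118 CPM in large and 8.18 to 88.9 in small clones. T cell genes (7 of 7 with counts) summed to 10.7 to 240 CPM in large clones and 3.47 to 129 CPM in small ones. B and plasma cell genes (8 of 10 with counts) summed to 71.5 to 165 CPM in large and 84.8 to 128 in small clones. Most of their counts were of Ms4a1 (3513 counts).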

How the data were processed

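RNA from laser-microdissected cells was amplified from poly(A) and made into Nextera XT libraries, per the labels' protocols. One table of expected counts, with genes in rows and libraries in columns, was deposited by the authors. RSEM, Bowtie2 and GRCm38 are named in the submitters' processing notes without versions. The gene coordinates of the table match GENCODE M21 (GRCm38) in 3.00% of 35491 shared identifiers, so they belong to another build, and none was converted. One row without a symbol, 0.133% of counts, was kept by identifier. Of all values 22.7% were not whole, and they were rounded. In R 4.3.3, edgeR 4.0.16 fitted large against small clones over 12 libraries (TMM, filterByExpr, quasi-likelihood test, Benjamini-Hochberg at 0.05, no block), which left 10848 genes with 97.2% of counts. SE is the log2 fold change over the root of F. CPM uses TMM-scaled library sizes, and pairwise differences use a pseudocount of 1.

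Both libraries of a number come from 1 mouse per the labels, so the pairing is by animal, and a fit with the mouse as a block was run beside the main one. Deviations from the clone size means correlated within a mouse at -0.38 (mouse 3) to 0.64 (mouse 6). The spread between libraries of a group, at a biological coefficient of variation of 115%, holds differences between mice and between libraries, which cannot be told apart. Alternatives were RLE, other filters, DESeq2 1.42.0, omission of each mouse, each set of libraries by chemoreceptor share and that share as a covariate. The covariate together with the block was added after seeing the data. Summing of repeated symbols was not needed. Named genes were the 6 members, the 2 most abundant tested genes of each class of the list, the neighbour of Fcgbp and the 3 most similar genes of each tested member. The members, lists and the split by chemoreceptor share were chosen with earlier results of these data known. In data simulated for 10848 genes of this comparison over 3 runs, edgeR recovered 2 of 300 genes altered 4-fold and 99 of 300 altered 16-fold, and made 3 false calls. Figures were drawn with matplotlib 3.10.9.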

Additional observations from a re-analysis of the deposited data

Results flagged for a closer look

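In 38 groups of 6 libraries (19 genes in 2 clone sizes) 16 single libraries lay apart from the other 5 of their group, by the Dixon criterion at the 95% level (gap to the nearest value over the whole range). Chance flags about 1 in 20 groups of normally distributed values, but CPM values are skewed, so that rate does not apply to them. Each of the 16 was the highest of its group. For Fcgbp and Sftpd, whose values chose them, the gap is a description, and for Slpi it follows from 5 of 6 values being 0. In mouse 3 these were Fcgbp in small clones (408 CPM, the next 95.8), and Sftpd (376, the next 39.3), Ltf (2245, the next 376) and Wfdc2 (1149, the next 393) in large clones. In mouse 5 they were Slpi in large (7.58 CPM) and small clones (8.39 CPM), with 0 in all other libraries, 9530053A07Rik in large clones (52.8 CPM), and Slc22a17 (233.6 CPM) and Cfd (596 CPM) in small clones. In mouse 4 they were Pigr (674 CPM), Trf (1345 CPM) and Cfd (23318 CPM) in large clones, and 9530053A07Rik (58.9 CPM) and Sftpc (194 CPM) in small clones. The others were Pigr in small clones of mouse 1 (627 CPM) and Trf in small clones of mouse 6 (86.2 CPM).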

How the results depend on the processing

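At an adjusted p under 0.05 the edgeR fits called 0 genes (180 to 2880 at an unadjusted p under 0.05), against 5 in DESeq2 and 43 in DESeq2 with the replicate block. Fcgbp kept its direction in 16 of 16 alternatives, with -1.22 in the 7 libraries of lower chemoreceptor share and -4.57 in the other 5, and -3.46 to -1.81 without 1 mouse. Sftpd also kept its direction in 16 of 16, with -0.31 in the 7, -3.41 in the 5, and -3.30 to -0.50 without 1 mouse. Under the replicate block it was -3.12 in edgeR and -3.17 in DESeq2. Both genes were chosen for that direction, so it is no sign of stability. Lcn2 kept its direction in 15 of 15 and Ltf in 15 of 16, with 0.17 in the 5. Pigr turned to 0.083 with RLE and with DESeq2, 0.12 and 0.11 with the replicate block in edgeR and DESeq2, 0.27 in the 7, 0.21 with the block and the share as a covariate, and ran from -0.92 to 0.79 without 1 mouse. Pigr, Ltf and Lcn2 passed in no alternative, and the replicate block changed no call of theirs. Slpi is given as counts with no fold change, because the filter left it out.

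The defence list had 0 genes called in 16 of 16 alternatives, and its median ran from -0.54 to 0.28. Signs that turned among its named genes, by setting, were as follows, with no cause tested. With the replicate block Fcgrt was 0.091 in edgeR and 0.087 in DESeq2. In the 7 libraries 9530053A07Rik was 0.035, Sftpc 0.22, Cst3 0.0042, C3 0.13 and Rela 0.060. In the 5 libraries 9530053A07Rik was 0.091, Colec12 -0.15, Fcgrt 1.32, Trf -1.75, Wfdc2 0.15, Cfd -2.14 and Esr1 1.50. With the share as a covariate 9530053A07Rik was 0.36, Sftpc 1.34 and Fcgrt 0.052, and with the block added Muc1 was 1.08, Sftpc 1.50, Fcgrt 0.84, Wfdc2 0.020, Cst3 0.087 and Rela 1.51. Without 1 mouse, 9530053A07Rik ran from -2.02 to 1.27, Sftpc from -1.15 to 1.21, Fcgrt from -1.06 to 0.18, Cst3 from -0.85 to 0.010 and C3 from -0.98 to 0.32.

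Fcgbp, Sftpd, Pigr, Ltf and Lcn2 had 2002 to 23995 counts each over the 12 libraries, and genes varied between libraries of a group by 115% (biological coefficient of variation). Low counts limit Lcn2 in both libraries of mouse 6 and in the large clones of mice 1, 2 and 4 (7, 0 and 13 counts), where its widest differences lie. They also limit Sftpd in the large clones of mouse 4 and Slpi outside mouse 5.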
